A study of Mus musculus with 12 samples.

Results

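Kupffer cells are the resident macrophages of the liver, and 10 genes commonly used as their markers were followed in livers with reduced Grb14. The markers were Clec4f, Vsig4, Timd4, Marco, Cd5l, Cd163, Folr2, Csf1r, Spic and Mertk. A gene entered when its probe set on the array was annotated with that symbol alone. All 10 were measured, each by 1 probe set, among 19938 genes in all. The livers came from 12 C57Bl/6J mice, an inbred laboratory strain, injected by vein at 10 weeks of age and studied in the fed state 7 days later. In 6 mice the recombinant adenovirus encoded a short hairpin RNA that targets Grb14 (sh Grb14), and in 6 one with a scrambled sequence (sh scramble). Both groups therefore received adenovirus, and no uninfected liver was analysed here. Per the series title, the question is how expression differs between livers with and without GRB14, an adapter that restrains the insulin receptor. Each liver gave 1 Affymetrix array, and levels are the deposited log2 values.

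Kupffer cells sit inside the liver sinusoids, where they take up bacteria, dying cells, old red blood cells and circulating adenovirus. Their survival depends on CSF1 and IL34 acting on the receptor CSF1R, and their identity on signals from the surrounding endothelium, stellate cells and hepatocytes. Resident cells of embryonic origin typically carry TIM4, whereas macrophages newly derived from monocytes at first lack it. Several of the 10 genes, such as Csf1r and Mertk, are shared with macrophages at large, whereas Clec4f is largely restricted to Kupffer cells in the mouse.

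The knockdown was present in every sh Grb14 liver. Grb14 lay between 8.02 and 8.44 with a median of 8.23 in sh Grb14 livers, against 10.08 to 10.25 with a median of 10.14 in sh scramble livers. Its log2 difference was −1.91 (SE 0.059, n = 6 per group; limma adjusted p = 7.99e-14). Of all genes tested, 25.8% were higher and 39.5% lower in sh Grb14 livers, so that 65.3% passed the test, which asked for a limma adjusted p under 0.05. The median change of all genes was −0.10 on the log2 scale. Array medians ranged from 7.06 to 7.17 and lower quartiles from 5.69 to 5.83. No detection call was made, so changes of genes near or below the array medians can be understated.

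The 10 markers did not move as one. Csf1r, Cd5l, Spic and Mertk were all more than 2-fold higher in sh Grb14 livers, Folr2 was slightly higher, and Clec4f, Vsig4, Timd4, Marco and Cd163 did not pass the test. Thus 5 of 10 markers rose, 0 fell and 5 did not pass, beside the 25.8% of all genes that rose. Where Folr2 lost its call, as described with its values, 4 rose. At least 2-fold rises made up 4 of the 10, against 6.37% of all genes. The same 4 were the markers whose groups did not overlap, beside 20.3% of all genes with every sh Grb14 liver above every sh scramble liver. The median change of the 10 markers was 0.23, against −0.10 for all genes. These are bulk livers, in which a larger number of cells of a type and more RNA per cell cannot be told apart.

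**Figure D1:**
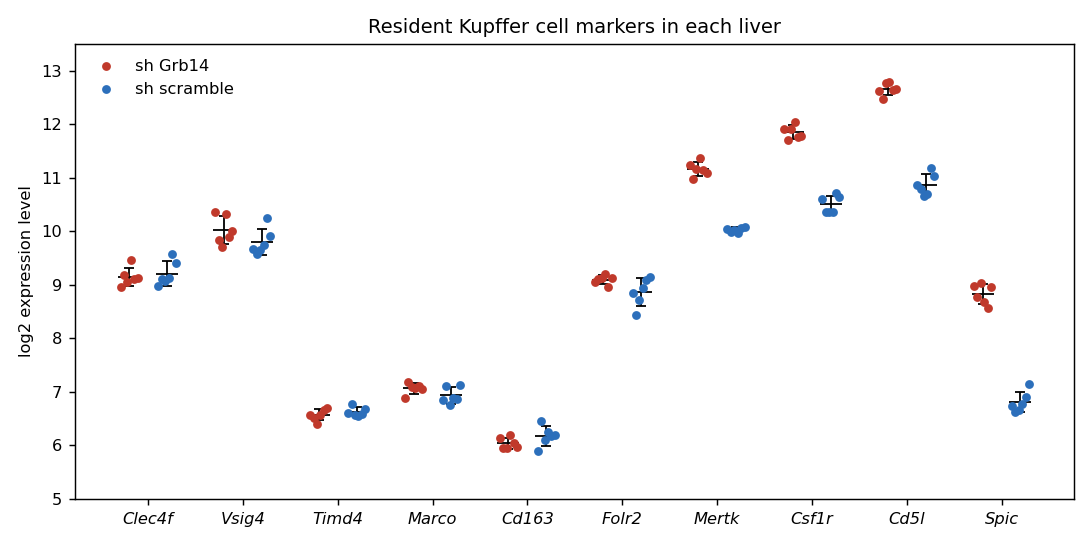
Log2 expression level (vertical axis) of the 10 Kupffer cell markers in each liver, with sh Grb14 in red to the left of sh scramble in blue. Each point is 1 mouse, and black bars give the mean and SD over 6 mice. The groups are apart for Mertk, Csf1r, Cd5l and Spic and overlap for the other markers.

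The surface receptors Clec4f, Vsig4, Timd4, Marco and Cd163, which bind glycans, complement fragments, dying cells, particles and haemoglobin complexes, did not pass the test. Clec4f is a C-type lectin of mouse Kupffer cells that binds glycans ending in galactose. Its level lay between 8.96 and 9.46 with a median of 9.12 in sh Grb14 livers, against 8.98 to 9.57 with a median of 9.12 in sh scramble livers. The ranges were nearly the same, and no sh Grb14 liver lay above the highest sh scramble liver. The difference was −0.06 with a 95% confidence interval of −0.27 to 0.15 (SE 0.098, n = 6 per group; limma adjusted p = 0.580). On the fold scale that interval reaches from 0.828 to 1.11, so changes of the size seen for Csf1r or Spic lie outside it.

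Vsig4 encodes CRIg, a receptor that binds complement fragments on bacteria. It lay between 9.71 and 10.35 with a median of 9.95 in sh Grb14 livers, against 9.57 to 10.24 with a median of 9.71 in sh scramble livers. The groups overlapped, although all 6 sh Grb14 livers lay above the sh scramble median. The difference of 0.22 (SE 0.12; 95% confidence interval −0.03 to 0.47) did not pass (limma adjusted p = 0.115). Without sh scramble mouse 5, the highest of its group, it did (0.31, adjusted p = 0.0186).

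Timd4 encodes TIM4, which recognises phosphatidylserine on dying cells. It lay between 6.41 and 6.69 with a median of 6.57 in sh Grb14 livers, against 6.55 to 6.77 with a median of 6.59 in sh scramble livers. The groups lay over one another, with a difference of −0.05 (95% confidence interval −0.19 to 0.08; limma adjusted p = 0.450). Marco encodes a class A scavenger receptor for bacteria and particles. It lay between 6.88 and 7.19 with a median of 7.08 in sh Grb14 livers, against 6.75 to 7.12 with a median of 6.88 in sh scramble livers. Of the sh Grb14 livers 5 were above the sh scramble median, but the difference of 0.13 (95% confidence interval −0.03 to 0.29) did not pass (limma adjusted p = 0.127).

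Cd163 encodes the receptor that takes up complexes of haptoglobin and haemoglobin. It lay between 5.94 and 6.20 with a median of 6.01 in sh Grb14 livers, against 5.90 to 6.46 with a median of 6.18 in sh scramble livers. Only 1 sh Grb14 liver was above the sh scramble median, and the groups overlapped. The difference of −0.14 (95% confidence interval −0.31 to 0.04) did not pass (limma adjusted p = 0.148). Leaving out sh scramble mouse 1, the lowest of its group, gave −0.19 with an adjusted p of 0.0370. Timd4, Marco and Cd163 all have levels near or below the array medians, so a change in them may be understated here. The levels of Clec4f and Vsig4 were well above the array medians.

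Folr2 encodes folate receptor beta, found on resident tissue macrophages. It lay between 8.96 and 9.20 with a median of 9.11 in sh Grb14 livers, against 8.44 to 9.15 with a median of 8.90 in sh scramble livers. The sh Grb14 livers were tightly grouped in the upper part of the sh scramble range, with SDs of 0.08 and 0.26. Its rise of 0.23 (SE 0.095; 95% confidence interval 0.03 to 0.43) passed narrowly (limma adjusted p = 0.0418). The call was lost under 11 of 19 alternatives, among them leaving out any of 8 mice (sh Grb14 1, 2, 3, 4 or 6, sh scramble 1, 2 or 3). Without sh scramble mouse 2, the lowest, the difference was 0.15. The two-sided exact permutation test gave p = 0.0563.

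The secreted product and the kinase receptors rose. Cd5l encodes AIM, a secreted protein with scavenger receptor domains that promotes macrophage survival. It lay between 12.48 and 12.79 with a median of 12.65 in sh Grb14 livers, against 10.67 to 11.17 with a median of 10.83 in sh scramble livers. Every sh Grb14 liver was above every sh scramble liver. The rise of 1.79 (SE 0.079) corresponds to 3.46-fold (95% confidence interval 3.08 to 3.88; limma adjusted p = 4.88e-12).

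Csf1r encodes the receptor for CSF1 and IL34, on which macrophages depend for survival. It lay between 11.71 and 12.04 with a median of 11.85 in sh Grb14 livers, against 10.35 to 10.71 with a median of 10.49 in sh scramble livers. Here too every sh Grb14 liver was above every sh scramble liver. The rise of 1.35 (SE 0.071) is 2.55-fold (95% confidence interval 2.30 to 2.83; limma adjusted p = 4.40e-11). Mertk encodes a receptor tyrosine kinase that, through the bridging ligands GAS6 and protein S, mediates uptake of dying cells. It lay between 10.97 and 11.37 with a median of 11.15 in sh Grb14 livers, against 9.96 to 10.08 with a median of 10.03 in sh scramble livers. The sh scramble livers hardly differed from one another (SDs of 0.14 in sh Grb14 and 0.05 in sh scramble livers). The rise of 1.14 (SE 0.055) is 2.20-fold (95% confidence interval 2.03 to 2.38; limma adjusted p = 1.55e-11).

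Spic, an ETS family transcription factor that in the mouse is needed for the iron-recycling macrophages of the spleen, had the largest difference of the 10. It lay between 8.57 and 9.03 with a median of 8.86 in sh Grb14 livers, against 6.63 to 7.15 with a median of 6.75 in sh scramble livers. The groups did not overlap, and the sh scramble levels were near the array medians. The rise of 2.02 (SE 0.095) is 4.05-fold (95% confidence interval 3.52 to 4.66; limma adjusted p = 1.18e-11). For Cd5l, Csf1r, Mertk and Spic the two-sided exact permutation test gave p = 0.00216 each, the smallest possible for 6 mice against 6. By that test, at an unadjusted p under 0.05, these 4 of the 10 markers passed, beside 67.6% of all genes.

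**Figure D2:**
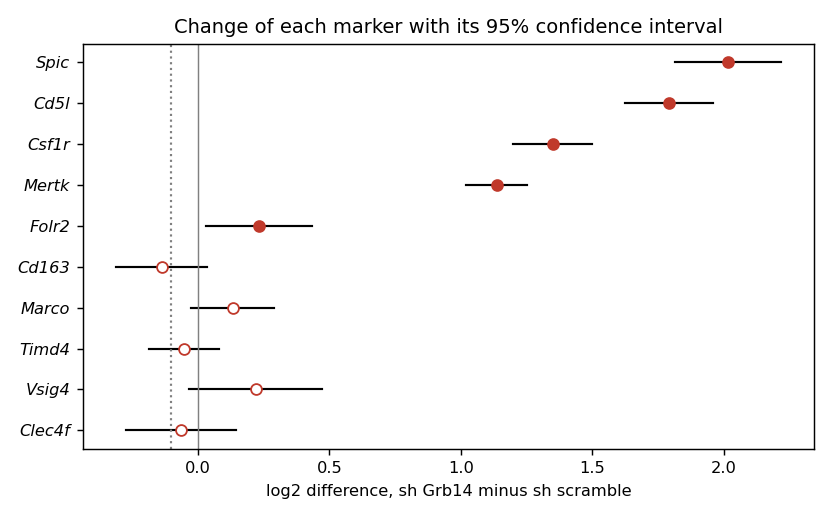
Log2 difference, sh Grb14 minus sh scramble (horizontal axis), of each marker with its 95% confidence interval. Filled points passed limma's test and open points did not, and the dotted line marks the median change of all genes (−0.10). The intervals of Mertk, Csf1r, Cd5l and Spic begin at 1.02 or above, and that of Folr2 ends at 0.43.

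Whether markers changed unequally was tested in all 45 pairs, from the difference between both markers in each mouse (two-sided exact permutation test, adjusted over the 45 pairs). Unequal change passed in 35 pairs. It passed in all 24 pairs of 1 of the 4 markers with large rises and 1 of the other markers, a grouping made from the changes themselves and therefore a description. Clec4f minus Cd5l averaged −3.51 in sh Grb14 livers and −1.66 in sh scramble livers, so that Clec4f changed less by 1.85 on the log2 scale (difference −1.85, SE 0.086; exact p = 0.00216, the smallest possible, and 0.00348 after adjustment). Among the 4 themselves 5 of 6 pairs passed. Cd5l rose by 0.44 more than Csf1r (SE 0.043, adjusted exact p = 0.00348), and Csf1r by 0.21 more than Mertk (SE 0.054, adjusted exact p = 0.00672). Cd5l and Spic did not pass as a pair (difference −0.23, SE 0.10; adjusted exact p = 0.0632). Of the 15 pairs among the other 6 markers, 6 passed. The change of Clec4f lay below that of Vsig4 by 0.28 (difference −0.28, SE 0.12; adjusted exact p = 0.0195) and below that of Folr2 by 0.30 (difference −0.30, SE 0.10; adjusted exact p = 0.0244). Log2 changes of different probe sets can be compressed unequally, above all those of Timd4, Marco and Cd163, and the part of this in the pair tests was not tested. Without those 3 markers, 12 of 12 pairs of a marker with a large rise and another marker passed, and 2 of 3 pairs among the others.

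Because SPIC and its relative PU.1 bind the PU box, GAGGAA, the 250 bases before the start of the markers were searched for this motif on both strands. Promoters from RefSeq (GRCm38.p6) matched 9 of the 10 markers by symbol, in 10 windows. Csf1r, a marker with a large rise, had no window and was not searched. The motif was in windows of 3 markers, Cd5l, Vsig4 and Marco, while 23.3% of 32851 promoters of the same length hold it. The nuclear receptor half-site AGGTCA, of the kind that LXR partners bind, was in those of Clec4f and Timd4, against 14.0% of promoters. Windows of a pair of markers with large rises and a pair that did not pass are shown, 5′ to 3′, with PU box matches of either strand in capitals.
Spic promoter, chr10:88683024-88683273, minus strand: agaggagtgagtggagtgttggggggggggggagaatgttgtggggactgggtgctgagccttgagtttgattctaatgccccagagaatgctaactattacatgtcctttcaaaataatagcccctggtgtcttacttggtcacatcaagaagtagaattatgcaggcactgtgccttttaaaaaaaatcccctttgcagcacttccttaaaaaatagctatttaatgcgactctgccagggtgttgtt
Cd5l promoter, chr3:87357631-87357880, plus strand: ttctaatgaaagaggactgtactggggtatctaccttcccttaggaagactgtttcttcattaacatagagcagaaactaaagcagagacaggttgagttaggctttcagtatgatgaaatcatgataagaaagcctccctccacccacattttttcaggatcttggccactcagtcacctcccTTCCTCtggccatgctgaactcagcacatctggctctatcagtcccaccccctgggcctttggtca
Vsig4 promoter, chrX:96293439-96293688, minus strand: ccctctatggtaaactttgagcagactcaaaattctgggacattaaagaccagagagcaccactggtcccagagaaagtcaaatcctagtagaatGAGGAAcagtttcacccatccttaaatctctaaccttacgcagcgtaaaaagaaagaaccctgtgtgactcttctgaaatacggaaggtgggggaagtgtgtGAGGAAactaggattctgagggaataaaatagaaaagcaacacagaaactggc
Clec4f promoter, chr6:83656117-83656366, minus strand: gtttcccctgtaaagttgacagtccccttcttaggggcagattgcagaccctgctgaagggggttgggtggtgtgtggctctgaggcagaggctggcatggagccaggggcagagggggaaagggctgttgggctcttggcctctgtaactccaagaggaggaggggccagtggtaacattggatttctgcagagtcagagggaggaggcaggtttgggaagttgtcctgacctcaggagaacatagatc
A match occurred once in Cd5l, which rose, and in 2 places in Vsig4, which did not pass. Neither the Spic nor the Clec4f window held one. Over all windows the motif was in 1 of the 3 markers with large rises that have a window and in 2 of the 6 other markers. A match of letters does not show a binding site.

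Genes that sustain Kupffer cells changed in both directions. In what follows, genes said to rise or fall passed limma's test over all genes, of which 25.8% rose and 39.5% fell. The list held 13 measured ligands and receptors of the niche, of which 8 rose, 3 fell and 2 did not pass. Their median change was 0.21. Of the ligands of CSF1R, Csf1 averaged 9.08 in sh Grb14 and 8.48 in sh scramble livers and rose by 0.60 (SE 0.074). Il34 averaged 7.16 in sh Grb14 and 7.36 in sh scramble livers and fell by 0.20 (SE 0.063). Tgfb1, a cytokine needed for Kupffer cell identity, rose by 1.52 (SE 0.055) and its receptor Tgfbr2 by 1.06 (SE 0.050). Dll4, the endothelial Notch ligand that instructs incoming monocytes, fell by 0.66 (SE 0.067). Gdf2, which encodes BMP9 of stellate cells, fell by 0.35 (SE 0.075).

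Transcription regulators of macrophages mostly rose. Of 12 measured, 8 rose, 3 fell and 1 did not pass. Their median change was 0.53. Spi1, which encodes PU.1, the master regulator of macrophages, averaged 11.13 in sh Grb14 and 8.89 in sh scramble livers, a rise of 2.24 (SE 0.081). Irf8, a partner of PU.1 in monocytes and macrophages, rose by 2.35 (SE 0.047). Nr1h3, which encodes LXR-alpha, a regulator of Kupffer cell identity that is also expressed in hepatocytes, fell by 0.17 (SE 0.045). Its partner Rxra fell by 0.55 (SE 0.062). Id3, another Kupffer cell regulator, averaged 9.15 in sh Grb14 and 8.88 in sh scramble livers and did not pass.

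The partners of MERTK and TIM4 in the uptake of dying cells moved unevenly. Of 15 measured genes of this process, 10 rose, 1 fell and 4 did not pass. The bridging ligands Gas6 and Pros1 did not pass, with changes of 0.0048 (SE 0.055) and −0.05 (SE 0.057). Of the receptors related to MERTK, Axl rose by 1.58 (SE 0.065), whereas Tyro3 did not pass (change 0.10, SE 0.076). Mfge8, which bridges phosphatidylserine to integrins, rose by 2.20 (SE 0.053), and Cd36, a scavenger receptor that also carries fatty acids, by 2.05 (SE 0.12). Stab2, an endothelial scavenger receptor, fell by 0.26 (SE 0.042).

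Genes of haemoglobin and iron recycling, the process in which CD163 and SPIC take part, mostly rose. Of 10 measured, 9 rose, 0 fell and 1 did not pass. Their median change was 0.35. Hmox1, heme oxygenase 1, averaged 11.54 in sh Grb14 and 8.83 in sh scramble livers, a rise of 2.71 (SE 0.061). Slc48a1, a heme transporter of lysosomes, rose by 1.31 (SE 0.033), and Slc40a1, the iron exporter ferroportin, by 0.95 (SE 0.048). Hp, haptoglobin made by hepatocytes and carried to CD163, rose by 0.21 (SE 0.036). Hepatocytes express several of these genes as well.

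Scavenger and complement receptors other than Marco and Vsig4 mostly rose. Of 12 measured genes of this list, 8 rose, 3 fell and 1 did not pass. Their median change was 1.15. The complement receptor gene C5ar1 rose by 2.43 (SE 0.089) and the integrin gene Itgax by 2.41 (SE 0.080). Itgax is also in the list of lipid-associated macrophages, where its change is the median. The scavenger receptors Colec12 and Scara5 fell by 0.62 (SE 0.079) and 0.25 (SE 0.074). The other gene of the list that fell, Cfb, encodes a complement factor and not a receptor (change −0.13, SE 0.029). Msr1, a class A scavenger receptor like Marco, averaged 10.96 in sh Grb14 and 9.40 in sh scramble livers. Both Cfb and Msr1 were named after their values were seen.

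Other macrophage genes were high in the same livers. Of 10 further genes enriched in Kupffer cells, 8 rose, 1 fell and 1 did not pass. Their median change was 1.42. Vcam1, an adhesion molecule also made by endothelium, rose by 2.69 (SE 0.076) and Il18bp, which neutralises interleukin 18, by 1.74 (SE 0.047). C6, a complement component also made by hepatocytes, averaged 10.59 in sh Grb14 and 12.19 in sh scramble livers and was lower by 1.60 (difference −1.60, SE 0.082). Fcna, the gene that did not pass, averaged 8.97 in sh Grb14 and 9.08 in sh scramble livers (change −0.10, SE 0.065). It was named after its values were seen. All 10 macrophage and phagocyte genes at large rose, by 1.43 to 2.14 with a median of 1.93. Laptm5, a lysosomal protein of leukocytes, rose by 2.14 (SE 0.070) and Fcgr1, a high-affinity IgG receptor, by 2.14 (SE 0.084). The mean level of this list lay between 10.75 and 10.93 in sh Grb14 livers and between 8.78 and 9.18 in sh scramble livers. The rises of Csf1r, Mertk, Cd5l and Spic stood beside this shift, and its part in them was not tested.

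Markers of other cell types moved as well. All 8 monocyte genes rose, with a median change of 1.43, and their mean level lay between 8.85 and 9.16 in sh Grb14 livers and between 7.34 and 7.46 in sh scramble livers. Chil3, of monocytes and activated macrophages, rose by 2.89 (SE 0.14) and Plac8 by 2.36 (SE 0.093). Of 7 genes of lipid-associated macrophages 6 rose and 1 fell, with a median of 2.41. The glycoprotein gene Gpnmb was up by 4.79 (SE 0.15), Lgals3, galectin 3, rose by 2.80 (SE 0.076), and the fatty acid binding protein gene Fabp5 fell by 0.58 (SE 0.17). All 7 neutrophil genes rose with a median of 1.66, led by the chemokine receptor Cxcr2 (change 2.36, SE 0.11) and by Retnlg (change 1.77, SE 0.11).

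Among T cell genes 6 of 7 rose and 1 fell. Cd3g, a CD3 chain of the T cell receptor complex, rose by 2.95 (SE 0.076) and the co-receptor chain Cd8b1 by 2.05 (SE 0.072). Cd4 fell by 0.66 (SE 0.053). Dendritic cell genes split, with 4 of 8 higher and 4 not past the test. Their changes ran from −0.19 to 2.23, with a median of 0.20. The 2 largest rises were those of Clec9a (2.23, SE 0.10) and Xcr1 (1.85, SE 0.095), of cross-presenting dendritic cells. Mean sh scramble levels of Clec9a (6.84) and Xcr1 (6.98) lay below the array medians. Sinusoidal endothelial genes had 3 of 10 higher, 6 lower and 1 not past the test. Lyve1 and Pecam1 rose by 1.14 (SE 0.075) and 0.45 (SE 0.062), and Clec4g and Kdr fell by 0.85 (SE 0.057) and 0.76 (SE 0.058). Of 8 hepatocyte genes 7 fell and 1 did not pass, with Tat, an amino acid enzyme, lower by 1.38 (difference −1.38, SE 0.13) and the P450 gene Cyp2e1 by 0.94 (difference −0.94, SE 0.041). Tat and Cyp2e1 had the 2 largest falls of this list. Changes of the 8 hepatocyte genes ran from −1.38 to 0.04, with a median of −0.26. The mean level of the hepatocyte genes lay between 12.87 and 13.09 in sh Grb14 and between 13.40 and 13.45 in sh scramble livers. The part of these shifts in the marker values was not tested.

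**Figure D3:**
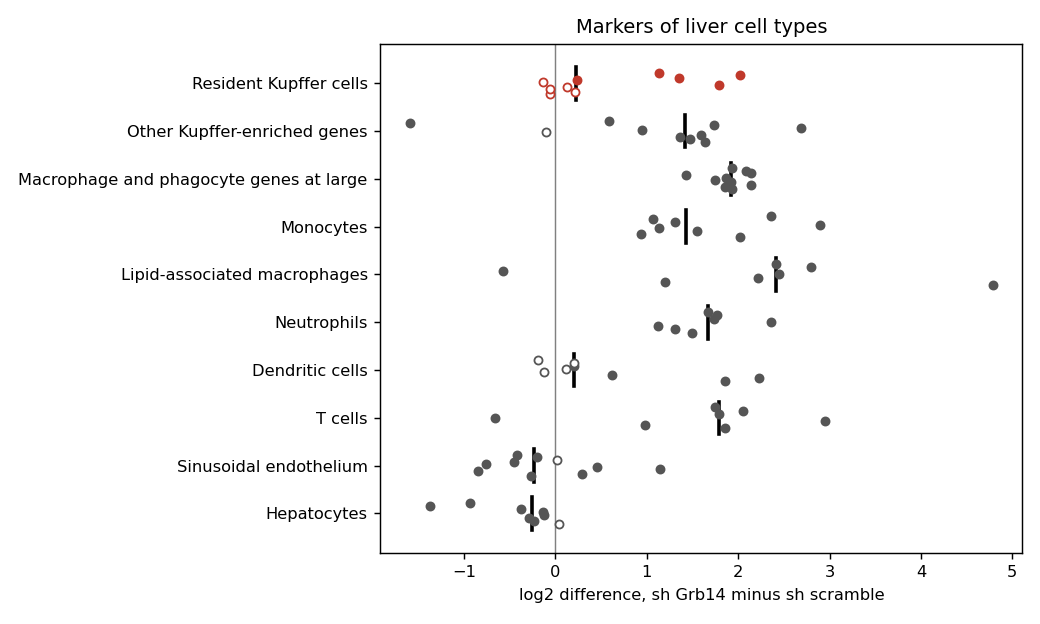
Log2 difference, sh Grb14 minus sh scramble (horizontal axis), of every measured gene in 10 cell type lists. Filled points passed limma's test, open points did not, and the vertical bar is the list's median. The resident Kupffer cell markers in red have a median of 0.23, against 1.93 for macrophage and phagocyte genes at large.

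Within a group, some mice carried higher levels of many markers at once. In the sh Grb14 group, mouse 4 was above its group mean in 8 of 10 markers, with a median deviation of 0.15, and mice 2 and 5 in 3 of 10 each. In the sh scramble group, mouse 6 was above its group mean in all 10 markers, mouse 5 in 7 and mouse 3 in 0. The deviations were small beside the rises of Spic or Cd5l, with the largest, in Vsig4 of sh scramble mouse 5, at 0.44. They were of the same order as the changes of Vsig4 and Folr2.

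Pairs of markers were compared over the 6 mice of each group apart, which gave 90 correlations. Pearson's r was above 0 in 29 of 45 pairs in sh Grb14 livers, with a median of 0.22, and in 32 of 45 in sh scramble livers, with a median of 0.62. The exact two-sided permutation p was under 0.05 in 3 and 9 of them, and after adjustment over all 90 in 0. With 6 mice the smallest exact p is 0.00139, which a single pair carries only to 0.125 after adjustment, so this count says nothing of whether markers vary together. The lowest p belonged to Cd5l and Csf1r in sh scramble livers (r = 0.93, exact permutation p = 0.00139; Spearman's rho = 1, exact p = 0.00278; adjusted p = 0.125 for both), and r was 0.83 without the 2 mice farthest from the median of Cd5l. In sh Grb14 livers Csf1r and Mertk had r = 0.94 (exact permutation p = 0.00694, adjusted p = 0.313; rho = 0.94, exact p = 0.0167, adjusted p = 0.30), and 0.80 without the 2 mice farthest from the median of Csf1r. These are descriptions of the livers measured.

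**Figure D4:**
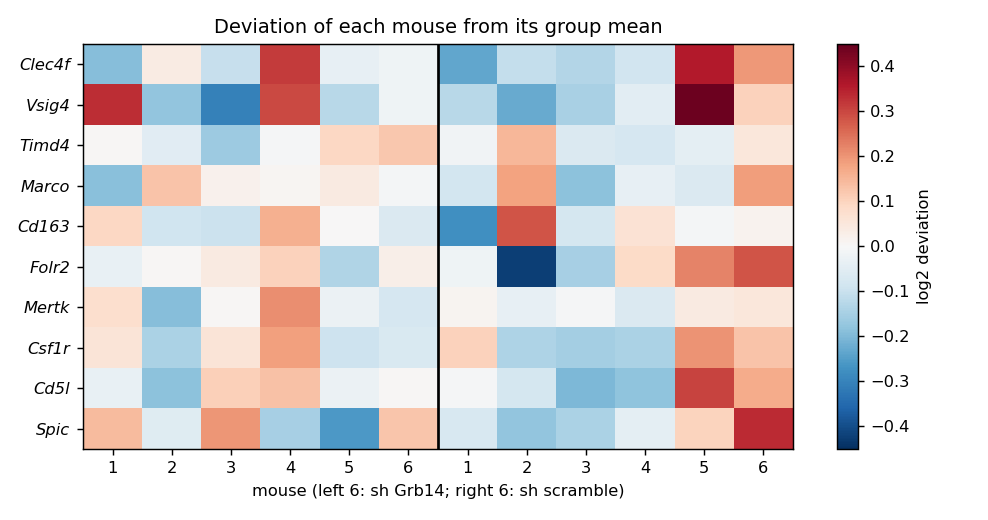
Deviation of each mouse from the mean of its own group (colour, log2 scale) for the 10 markers (rows) in the sh Grb14 mice (left 6 columns) and sh scramble mice (right 6 columns). Mouse 4 of the sh Grb14 group and mice 5 and 6 of the sh scramble group are above their group means in 8, 7 and 10 markers.

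The genes whose deviations from the group means were most like those of Clec4f over the 12 mice were Dab1, H2-Q2, Nptx1, Ms4a8a and Cd74, with Pearson's r of 0.85 to 0.88 among 19937 genes. These values rank a large number of genes over few mice and are given as a description without a p. Of the other markers Cd5l stood nearest to Clec4f, at rank 192 (r = 0.68), and Vsig4 at rank 402 (r = 0.62). Timd4 lay at rank 9090 (r = 0.022). Cd74, the invariant chain of class II presentation, rose by 2.09 between the groups and Ms4a8a, a membrane protein of macrophages, by 1.13, whereas Clec4f did not pass.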

How the data were processed

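RNA from 12 livers, 100 ng per array, was made into biotinylated target for whole-transcript Affymetrix arrays, per the labels' protocols. The values deposited by the authors are log2 expression levels of 35556 probe sets. The submitters' processing notes name RMA and Partek, with no version, role or order; the build of the probes is not given in the sources used here. Probe sets were named through the platform annotation, 21789 with 1 symbol, and the brightest probe set of each symbol was kept. All 19938 genes were fitted with limma 3.58.1 in R 4.3.3 (lmFit, eBayes with an intensity trend, no covariate), and p was adjusted by Benjamini-Hochberg over all of them. The fit and the exact permutation test were tested on simulated data. Exact permutation tests ran over all assignments of the 12 mice. Genes were named by rule: all markers, the 2 largest rises and falls of each list, a fixed set of ligands, partners, regulators and genes of the same processes (such as Hmox1, Slc40a1 and Hp), and the 5 genes most like Clec4f. Cfb, Fcna and Msr1 were named outside this rule, after their values were seen. The markers, lists and motifs were chosen with earlier results of these data known. Some genes, such as Itgax and Stab2, are in more than 1 list, so the counts of different lists are not independent. Each mouse is taken as 1 replicate, and 6 arrays per group limit the precision. The labels give no hybridisation or scan batch, so none could be tested. Depth does not apply to arrays. The alternatives were other scalings, a filter on dim genes, other variance models, exact tests, averaged probe sets and leaving out each mouse.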

Additional observations from a re-analysis of the deposited data

How the results depend on the processing

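The rises of Cd5l, Csf1r, Spic and Mertk passed under all 19 alternatives each, with changes of 1.75 to 1.85, 1.31 to 1.39, 1.98 to 2.08 and 1.10 to 1.18, and Timd4 and Marco did not pass under any of their 18. The change of Folr2 lost its call with arrays centred on their medians (0.22, adjusted p = 0.0664), with quantile normalisation (0.15, adjusted p = 0.158) and by the exact permutation test (0.23, p = 0.0563), and it ranged from 0.15 to 0.29 with 1 mouse left out. With 1 mouse left out Clec4f ranged from −0.13 to 0.0088, Vsig4 from 0.15 to 0.31, Timd4 from −0.079 to −0.022, Marco from 0.095 to 0.17 and Cd163 from −0.19 to −0.081. Clec4f turned positive without sh scramble mouse 5 (0.0088, adjusted p = 0.933). With quantile normalisation the change of Clec4f was −0.14 (limma adjusted p = 0.266), the lowest under any alternative. The number of markers past the test was 4 to 6 higher and 0 to 1 lower with 1 mouse left out, the 1 being Cd163 without sh scramble mouse 1. Testing only genes above the median level, which leaves fewer genes, gave 7869 genes past the test, 4051 of them lower, against 13012 and 7868. Timd4, Marco and Cd163 were below that level and gave no value there. The pairs of markers that changed unequally numbered 31 to 35 with 1 mouse left out. The correlations between markers could hardly pass at 6 mice on either scale, so their count of 0 shows no stability. No paired analysis was possible because the labels give the mice of both groups no shared number. Signal near background limits Timd4, Marco, Cd163 and the sh scramble level of Spic, for which no detection call was made. Some other named genes share this limit, as their mean sh scramble levels lay below the array medians. Among them were Chil3 (4.65), Cxcr2 (5.22), Retnlg (5.73) and Gpnmb (6.47).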
